A study of Mus musculus with 20 samples.

Results

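Transcripts of Brg1, encoded by Smarca4, and of 9 further subunits of the BAF family of chromatin remodelling complexes were followed across 6 groups of mouse bone marrow-derived macrophages. The genes were chosen by name, as the rows of the deposited gene table whose symbol was Smarca4, Smarca2, Arid1a, Arid1b, Arid2, Pbrm1, Smarcc1, Smarcc2, Dpf2 or Actl6a. All 10 were present among the 17787 genes of the table, and all 10 passed the filter on low values (3 or more libraries with a normalized count of 10 or more), which 12061 genes passed.

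The cells came from male wild type C57BL/6J mice and were differentiated for 7 days in medium with L929 cell supernatant. Every group then received an siRNA at 50 nM for 48 hours in serum-free medium, either a control siRNA or one against Brg1. For the last 6 hours the cells were given vehicle (ethanol and D-PBS), LPS at 100 ng/ml with ethanol, or dexamethasone (Dex) at 1 µM together with LPS at 100 ng/ml. The vehicle and LPS groups of each siRNA had 3 libraries, and the Dex+LPS groups had 4. No group was left without an siRNA, and RNA was measured but not protein. LPS, from the outer membrane of bacteria, activates Toll-like receptor 4 signalling, and Dex is a synthetic glucocorticoid that acts through the glucocorticoid receptor. The labels do not say whether the libraries of a group came from separate mice or cultures, so each p-value reflects spread among libraries that may be technical in origin.

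The 20 libraries held 13.7 to 18.7 M reads. All 8 macrophage markers looked up (among them Adgre1, Csf1r and Lyz2) were in the table, with a summed level of 15200 to 24600 RPM (reads scaled to each library's total). Neutrophil markers summed to 3.21 to 32.2 RPM, highest with Dex+LPS. Among them S100a8 ranged from 1.6 to 28.9 RPM, Ngp reached 3.87 and Camp 2.19. Cebpe, Mpo, Ly6g and Elane reached no more than 0.893, 0.142, 0.139 and 0.0648. The B cell, T and NK cell, dendritic cell and fibroblast lists each stayed at or under 2.68 RPM, and the mast cell list at or under 12.3. None of the 4 erythroid markers was in the table.

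BAF complexes use ATP hydrolysis to slide or evict nucleosomes and so open or close regulatory DNA. The motor is either Brg1 or its paralog Brm, encoded by Smarca2. Smarcc1 and Smarcc2 form the scaffold on which the complex is built. Canonical BAF contains Arid1a or Arid1b together with a PHD finger protein such as Dpf2, whereas the PBAF form contains Arid2 and the bromodomain protein Pbrm1, and Actl6a is an actin-related protein bound to the ATPase. In macrophages these complexes are known for their part in inducing a subset of LPS target genes, and Brg1 is known as a coregulator of the glucocorticoid receptor.

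Sequences upstream of the start sites of Smarca4, Smarca2 and Arid1a are shown because the first and the third of these genes moved opposite to the second after LPS and after Dex under the authors' scaling. They are RefSeq sequences of build GRCm38.p6, 5′ to 3′ on the strand of the gene, and capitals mark GC boxes (GGGCGG on either strand). The Smarca2 stretch is shorter because it ends before the first annotated transcribed base.
Smarca4, chr9:21615919-21616168, plus strand: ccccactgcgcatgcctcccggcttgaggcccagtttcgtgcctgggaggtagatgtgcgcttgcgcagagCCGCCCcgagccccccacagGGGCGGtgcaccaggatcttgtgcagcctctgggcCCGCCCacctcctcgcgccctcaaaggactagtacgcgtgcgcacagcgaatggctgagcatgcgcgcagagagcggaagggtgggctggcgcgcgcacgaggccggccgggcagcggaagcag
Smarca2, chr19:26604910-26605049, plus strand: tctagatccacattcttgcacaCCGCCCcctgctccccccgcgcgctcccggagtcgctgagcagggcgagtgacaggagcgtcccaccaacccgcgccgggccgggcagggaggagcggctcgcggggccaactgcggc
Arid1a, chr4:133756770-133757019, minus strand: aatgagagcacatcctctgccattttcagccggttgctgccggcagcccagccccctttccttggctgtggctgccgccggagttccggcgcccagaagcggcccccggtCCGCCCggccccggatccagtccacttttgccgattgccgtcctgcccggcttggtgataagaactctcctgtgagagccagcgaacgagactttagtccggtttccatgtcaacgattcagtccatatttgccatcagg
A 250-base window upstream of a RefSeq start site was found for 9 of the 10 genes. The motifs searched on both strands were the GC box, the AP-1 site TGANTCA, and the NF-kB, GR and NRF1 consensus motifs. GC box matches may overlap one another. The Smarca4 window held 3 GC boxes, the Smarca2 window 2 and the Arid1a window printed here 1. A further Arid1a window (chr4:133753986-133754235), not printed, held 7. GC boxes also lay in the windows of Arid1b, Smarcc1 and Actl6a. The further Arid1a window and the windows of Arid1b (chr17:4994824-4995073), Smarcc1 (chr9:110131774-110132023) and Actl6a (chr3:32708296-32708545) lay inside the gene positions given below. Their GC boxes are therefore not upstream of the first annotated transcribed base. The same holds for the Smarca2 box 69 bases before its RefSeq start site. Of 32817 windows of this length in the RefSeq table, 32.7% held a GC box. The share of G and C bases averaged 53.2% over all windows and was 57.2% to 81.6% in those of the 9 genes. The part of base composition in the GC box matches was not tested. The other motifs had no match in any window of the 9 genes, against 6.75% of all windows for AP-1, 3.9% for NF-kB, 1.58% for NRF1 and 0.232% for GR.

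The siRNA target was checked first. With vehicle, the normalized counts of Smarca4 were 1476, 1538 and 1626 in the controls versus 365, 358 and 340 under Brg1 siRNA. In the LPS groups Smarca4 read 2990, 2899 and 2751 (control siRNA) and 621, 560 and 600 (Brg1 siRNA). Smarca4 counts in the Dex+LPS libraries were 2032, 1745, 1905 and 2181 (control siRNA) versus 460, 414, 442 and 518 (Brg1 siRNA). Each Brg1 siRNA library lay below every control siRNA library of all 3 treatments, as the labels have it. The mean was 4.36-fold lower in the vehicle groups, 4.85-fold in the LPS groups and 4.29-fold in the Dex+LPS groups. On the log2(normalized count + 1) scale, used for every log2 fold change given here, the differences were -2.12 (SE 0.085, limma adjusted p = 1.5e-11), -2.28 (SE 0.085, limma adjusted p = 3.76e-12) and -2.10 (SE 0.074, limma adjusted p = 1.31e-12). In bulk RNA, a lower level in all cells and the loss of RNA from a share of the cells cannot be told apart.

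**Figure D1:**
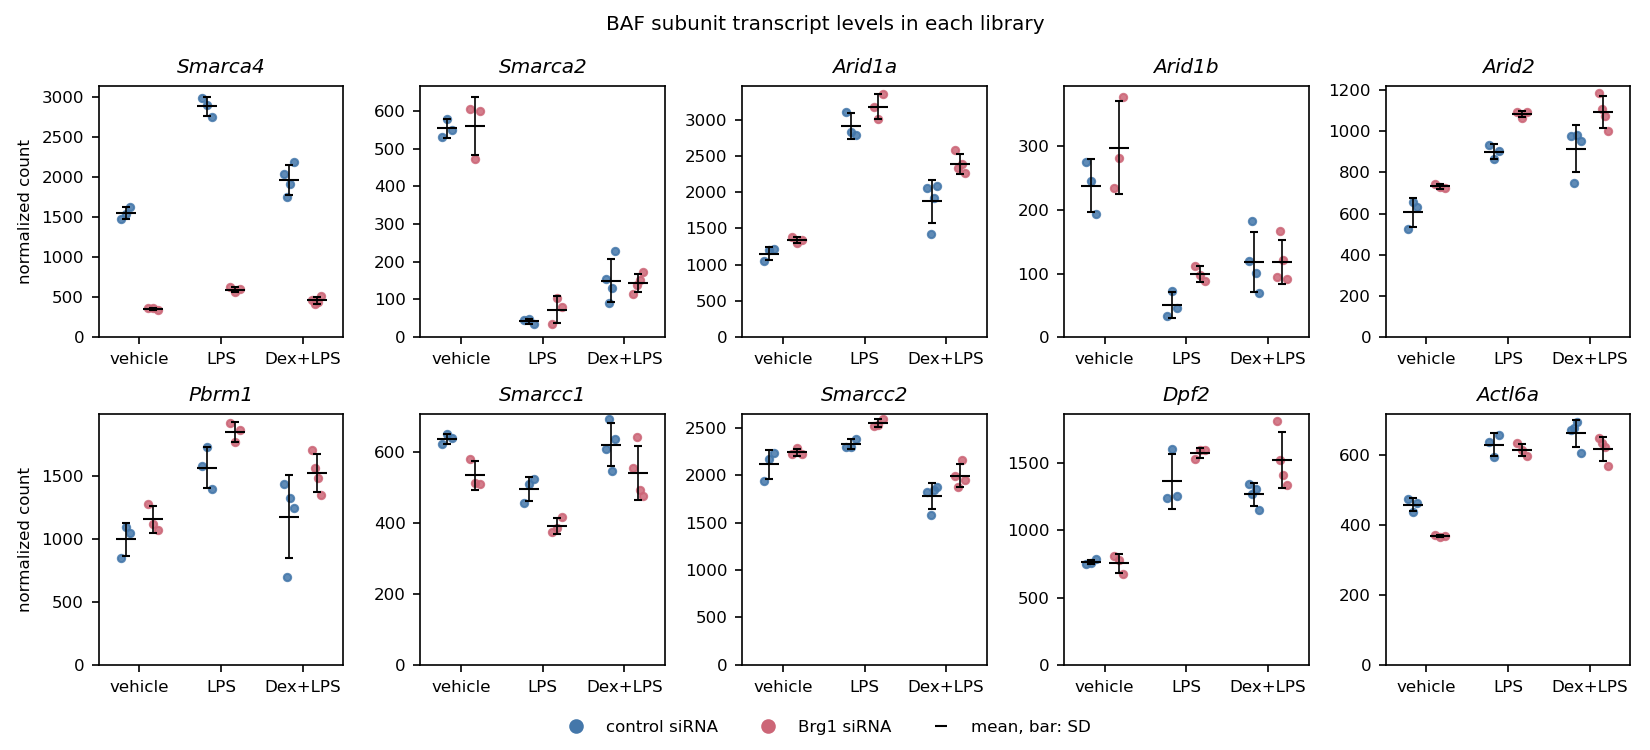
Normalized counts of the 10 subunit genes (vertical axes, each starting at 0 with its own range) in each of the 20 libraries (points) by treatment, with control siRNA in blue and Brg1 siRNA in red; horizontal marks are group means and bars are SD. Smarca4 was 4.29-fold to 4.85-fold lower with Brg1 siRNA, and Smarca2 and Arid1b were lowest in the LPS groups.

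Between the siRNAs, 2, 4 and 5 of the 10 subunit genes were called with vehicle, LPS and Dex+LPS, Smarca4 among them each time. With vehicle, none of the 10 genes was called higher and 2 were called lower with Brg1 siRNA, where 9.39% of all tested genes were called higher and 10.8% lower; the lower ones were Smarca4 and Actl6a. After LPS, 2 were higher (Arid1b and Arid2) and 2 were lower (Smarca4 and Smarcc1), beside 17.3% and 15.8% of all tested genes. With Dex+LPS, 4 were higher (Arid1a, Arid2, Smarcc2 and Dpf2) and 1 was lower (Smarca4), beside 19% and 15.3% of all tested genes. The median log2 difference of the 9 genes other than Smarca4 was 0.09, 0.22 and 0.17 in the 3 treatments, where that of all tested genes was 0.01 in each. Scaling by plain library totals in place of the authors' size factors changed these splits and turned the one with Dex+LPS. It called 3 lower and 0 higher with vehicle, 1 higher and 2 lower with LPS, and 1 higher and 3 lower with Dex+LPS, where all tested genes split into 8.03% higher and 13.2% lower, 11.1% and 24.2%, and 13.7% and 23.6%. The median log2 difference of all tested genes was then -0.028, -0.12 and -0.092. That of the 10 subunit genes was 0.007, 0.035 and 0.002, beside 0.047, 0.174 and 0.105 under the authors' scaling. The LPS count of 4 became 2 without control siRNA LPS replicate 1 or Brg1 siRNA LPS replicate 1 or 2, and 1 without control siRNA LPS replicate 3. The Dex+LPS count of 5 became 2 without control siRNA Dex+LPS replicate 2, described with Arid1a below, or without Brg1 siRNA Dex+LPS replicate 1.

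LPS moved most subunit genes under the authors' scaling, and it moved most of all tested genes too. Whether the subunit genes were called more often than other genes was not tested. With control siRNA, 6 of the 10 genes rose (Smarca4, Arid1a, Arid2, Pbrm1, Dpf2 and Actl6a) and 3 fell (Smarca2, Arid1b and Smarcc1), where 36% of all tested genes rose and 37% fell. With Brg1 siRNA, 7 rose, the same 6 and Smarcc2, and Smarca2, Arid1b and Smarcc1 fell, where 35.4% of all tested genes rose and 37.4% fell. The median log2 change of the 10 genes was 0.52 with control siRNA and 0.62 with Brg1 siRNA, against -0.037 and -0.055 for all tested genes.

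These directions rest in part on the scaling. After the authors' size factors, the normalized total of a control siRNA library was 11.97 to 12.01 M with vehicle and 17.76 to 18.14 M with LPS. Scaling by plain library totals moved the median log2 LPS change of all tested genes to -0.61 with control siRNA and -0.72 with Brg1 siRNA, and the median Dex change to 0.28 and 0.31. On that scale the LPS calls of Smarca4, Arid1a, Smarca2, Arid1b, Smarcc1 and Dpf2 with control siRNA remained, with changes of 0.32, 0.76, -4.255, -2.834, -0.94 and 0.24. Arid2 and Actl6a turned to -0.001 and -0.12, not called, Pbrm1 fell to 0.08, not called, and Smarcc2 turned to -0.44 (limma adjusted p = 2.16e-05). With Brg1 siRNA, the plain-total changes of Smarca4, Actl6a, Pbrm1 and Arid2 were 0.06, 0.05, 0.004 and -0.11, none called, and that of Smarcc2 was -0.50 (limma adjusted p = 4.97e-06). Under the authors' scaling the median gene stayed near 0, so the values below are changes relative to the median gene.

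**Figure D2:**
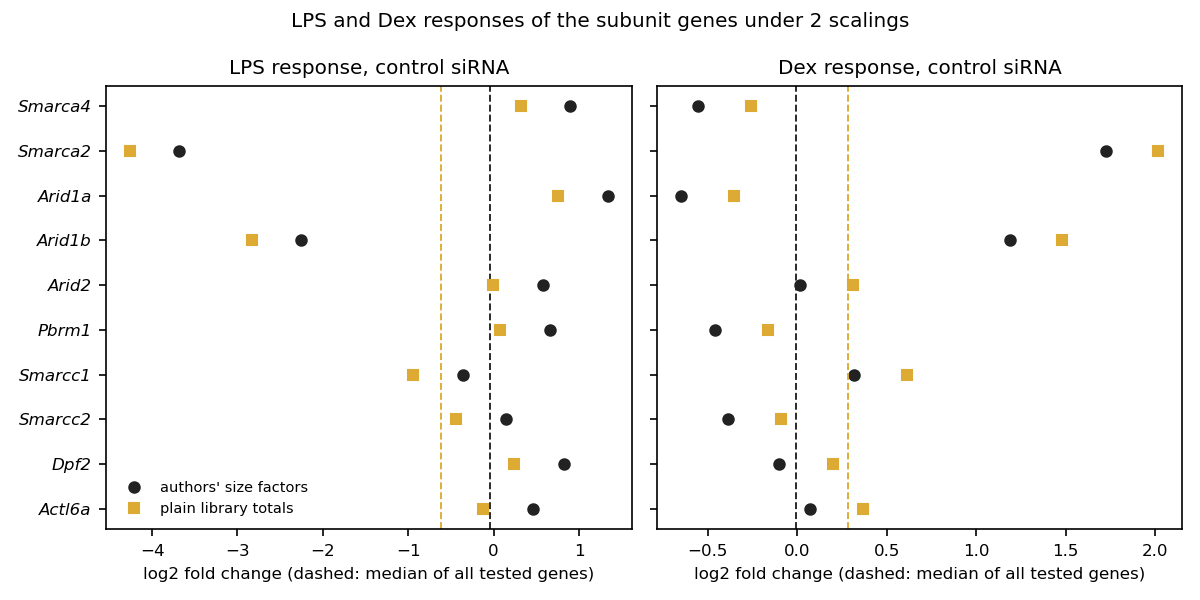
Log2 fold changes (horizontal axes) of the 10 subunit genes for LPS against vehicle (left) and Dex+LPS against LPS (right) with control siRNA, under the authors' size factors (circles) and plain library totals (squares); dashed lines are the medians of all tested genes. For LPS all squares lie to the left of the circles, and the medians are -0.04 and -0.61.

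Adding Dex to LPS moved fewer of them. With control siRNA, 3 of the 10 genes were higher with Dex+LPS than with LPS (Smarca2, Arid1b and Smarcc1) and 4 were lower (Smarca4, Arid1a, Pbrm1 and Smarcc2), beside 23.4% and 25.2% of all tested genes. With Brg1 siRNA, 2 were higher (Smarca2 and Smarcc1) and 3 were lower (Smarca4, Arid1a and Smarcc2), beside 21.3% and 23% of all tested genes. The LPS and Dex comparisons of one siRNA share their LPS libraries, so opposite signs in the pair are partly built in and are given side by side only. On plain library totals the Dex falls of Smarcc2 and Pbrm1 with control siRNA (-0.09 and -0.16) and of Smarca4, Arid1a and Smarcc2 with Brg1 siRNA (-0.04, -0.08 and -0.02) were no longer called. Arid2 and Actl6a were then called higher with both siRNAs, at 0.31 and 0.37 with control siRNA and at 0.34 and 0.34 with Brg1 siRNA.

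No subunit gene was called in the test of whether the siRNA changed the LPS response, where 11.4% of all tested genes were called, or the Dex response, where 3.97% were called. At an unadjusted limma p under 0.05 there was 1 of 10 in each, Actl6a for LPS and Arid1b for Dex. edgeR and DESeq2 also called 0 of the 10 in both, with 1 and 1 at an unadjusted p under 0.05 for LPS and 1 and 2 for Dex. In 4 other alternatives Actl6a was called for LPS, with limma adjusted p from 0.029 to 0.0457.

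**Figure D3:**
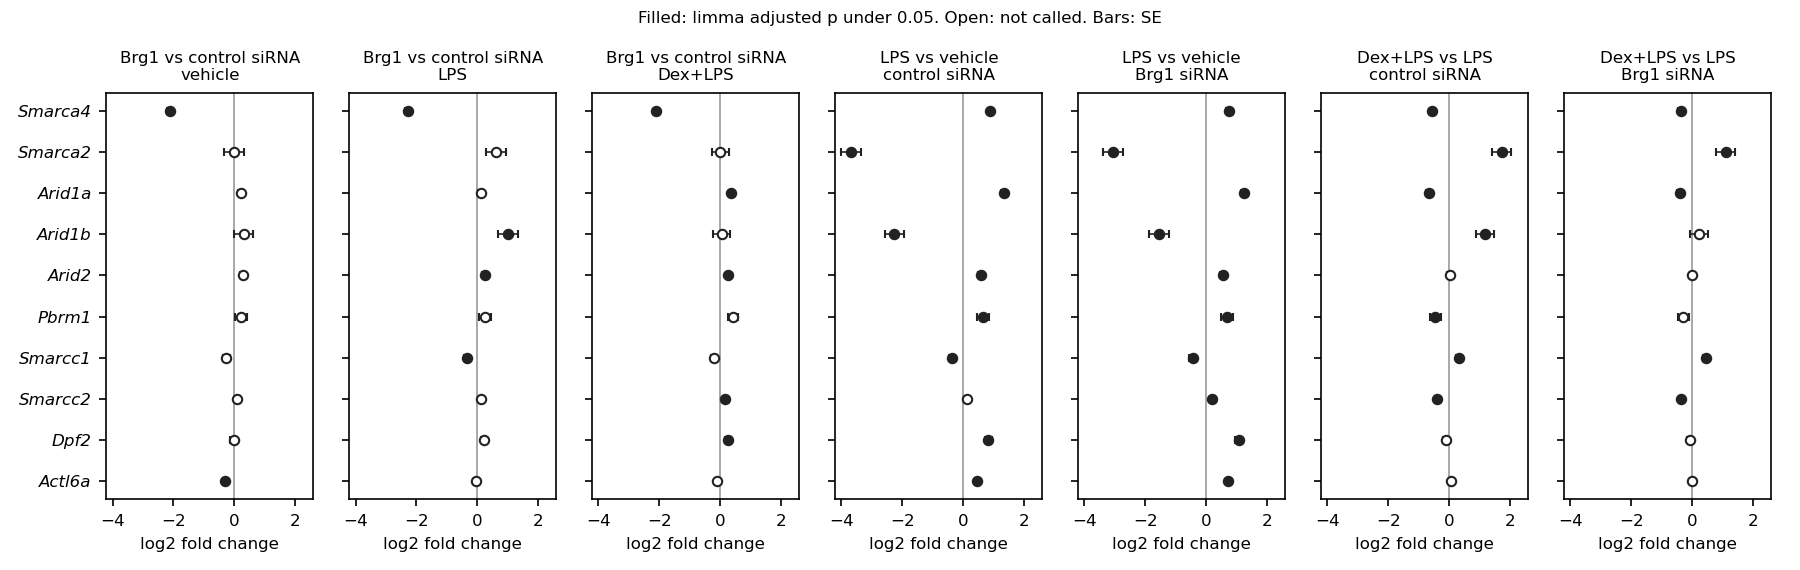
Log2 fold changes (horizontal axes, the same range in each panel) of the 10 subunit genes in 7 comparisons, with bars for SE; filled points are limma adjusted p under 0.05 and open points were not called. Smarca4 is at -2.12, -2.28 and -2.10 in the 3 siRNA comparisons, and Smarca2 has the lowest value of the 10 in both LPS panels, at -3.68 and -3.06.

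Among the ATPases, the 2 paralogs moved in opposite directions after LPS. From the Smarca4 counts above, LPS raised Smarca4 by 0.90 with control siRNA (SE 0.085, limma adjusted p = 2.55e-08), to 1.86 times the vehicle mean, and by 0.74 with Brg1 siRNA (SE 0.085, limma adjusted p = 3.28e-07), a rise that was 0.06 and not called on plain library totals. Dex changed it by -0.55 with control siRNA (SE 0.079, limma adjusted p = 1.37e-05) and by -0.38 with Brg1 siRNA (SE 0.079, limma adjusted p = 0.00084). The order of the group means was control LPS, control Dex+LPS, control vehicle, Brg1 siRNA LPS, Brg1 siRNA Dex+LPS and Brg1 siRNA vehicle, and no neighbours in that order overlapped. Smarca4 lies on chromosome 9, 21616169 to 21704230, plus strand (GRCm38).

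Smarca2, on chromosome 19, 26605050 to 26778322, plus strand, encodes the alternative ATPase. Its normalized counts with vehicle were 531, 580 and 550 in the controls versus 607, 471 and 601 under Brg1 siRNA. Smarca2 stood at 45.1, 47.4 and 35.3 in the LPS controls and at 33.7, 105 and 80.7 in their Brg1 siRNA counterparts. The 4 Dex+LPS controls read 153, 89.8, 130 and 228, and the 4 Brg1 siRNA libraries 114, 139, 152 and 173. Every LPS and Dex+LPS library lay below every vehicle library, and the 2 siRNAs overlapped within each treatment. The LPS libraries held only 27 to 84 Smarca2 reads.

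LPS lowered the Smarca2 mean 13.0-fold with control siRNA (log2 change -3.68, SE 0.329, limma adjusted p = 1.17e-08) and 7.67-fold with Brg1 siRNA (-3.06, SE 0.329, limma adjusted p = 1.43e-07). Dex+LPS was higher than LPS by 1.73 with control siRNA (SE 0.308, limma adjusted p = 0.000148) and by 1.11 with Brg1 siRNA (SE 0.308, limma adjusted p = 0.00705). Between the siRNAs Smarca2 was not called: the log2 difference was 0.01 with vehicle (SE 0.329, limma adjusted p = 1), 0.63 with LPS (SE 0.329, limma adjusted p = 0.158) and 0.01 with Dex+LPS (SE 0.285, limma adjusted p = 0.99). Brg1 siRNA LPS replicate 1, with 27 reads, decided a call in both directions. Without it the LPS difference between the siRNAs was 1.10 (limma adjusted p = 0.00615) and the Dex change with Brg1 siRNA was 0.63 (limma adjusted p = 0.0659).

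The makeup of the ATPase pair was described per library, as the share of Smarca2 in the sum of both genes' counts per kilobase of their longest coding transcript. With control siRNA, Smarca2 made up 27.9% ± 1.09 (SD, n = 3) of the pair with vehicle, 1.57% ± 0.187 (SD, n = 3) with LPS and 7.44% ± 2.03 (SD, n = 4) with Dex+LPS. With Brg1 siRNA the shares were 62.8% ± 3.65 (SD, n = 3), 11.7% ± 5.70 (SD, n = 3) and 25.3% ± 2.78 (SD, n = 4). The libraries of the 2 siRNAs did not overlap in any treatment. The siRNA target Smarca4 is itself a member of the pair, so its knockdown enters the share. The summed level of both genes was 336 ± 13.7 per kilobase with control siRNA and vehicle and 150 ± 12.7 with Brg1 siRNA and vehicle (SD, n = 3). After LPS the sums were 459 ± 19.8 and 105 ± 2.35, and with Dex+LPS they were 333 ± 38.7 and 96.3 ± 9.77. The share depends on the length used for Smarca2, which has 27 annotated coding transcripts with a median of 834 bases and a longest of 5921, and so do the sums. Per kilobase of the median coding transcript, a length tried after the data were seen, the Smarca2 shares of the vehicle, LPS and Dex+LPS groups were 71.6%, 9.42% and 34.1% for control siRNA. With Brg1 siRNA they were 91.7%, 44.4% and 68.7% in the same order, again without overlap between the siRNAs, and the vehicle sums were 927 and 731.

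**Figure D4:**
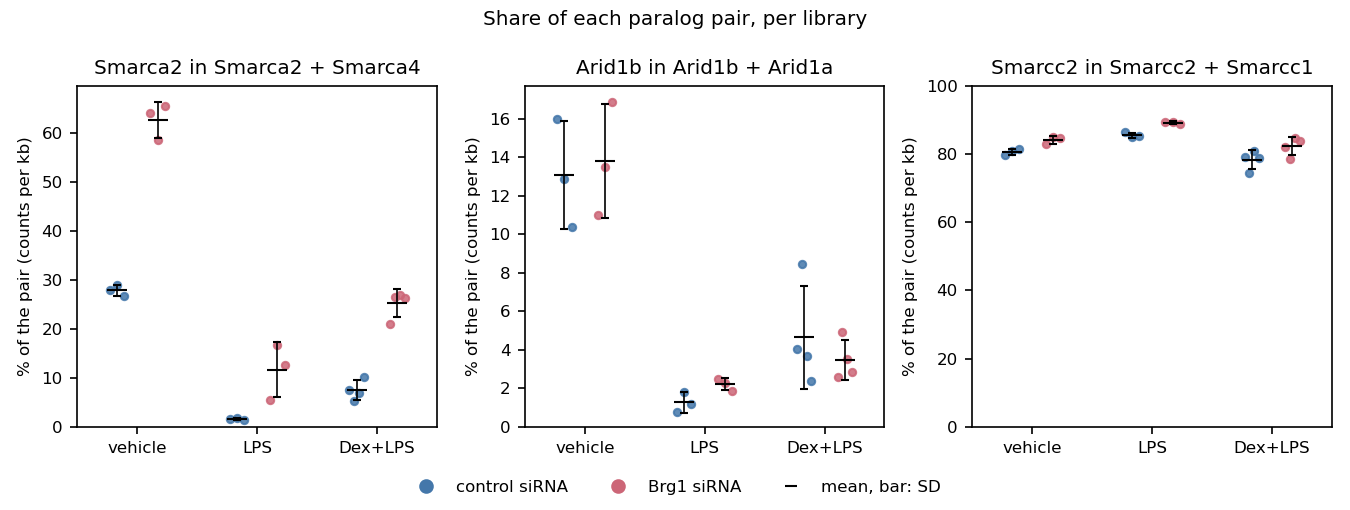
Share of the first-named gene in the sum of a paralog pair, in percent of counts per kilobase (vertical axes from 0), for each library (points) by treatment and siRNA (blue control, red Brg1), with group means and SD. Smarca2 falls from 27.9% to 1.57% of its pair after LPS with control siRNA, and Arid1b from 13.1% to 1.26%.

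Arid1a and Arid1b, the alternative DNA-binding subunits of canonical BAF, also parted after LPS. Arid1a (chromosome 4, 133679008 to 133756769, minus strand) had normalized counts of 1049, 1199 and 1209 with control siRNA and vehicle and of 1378, 1303 and 1346 with Brg1 siRNA and vehicle. LPS libraries gave Arid1a counts of 3110, 2831 and 2786 under control siRNA and 3177, 3008 and 3347 under Brg1 siRNA. Dex+LPS libraries held 2059, 1428, 1916 and 2077 under control siRNA versus 2582, 2332, 2385 and 2260 under Brg1 siRNA. All LPS libraries were higher than all others, and with Dex+LPS every Brg1 siRNA library exceeded every control siRNA library. LPS raised Arid1a by 1.34 with control siRNA (SE 0.108, limma adjusted p = 2.72e-09) and by 1.24 with Brg1 siRNA (SE 0.108, limma adjusted p = 7.56e-09). The Dex changes were -0.65 (SE 0.101, limma adjusted p = 3.27e-05) and -0.41 (SE 0.101, limma adjusted p = 0.00279). The difference between the siRNAs with Dex+LPS was 0.37 (SE 0.093, limma adjusted p = 0.00502).

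The value of 1428 came from control siRNA Dex+LPS replicate 2, which stood apart from its group. Over 1820 tested genes whose longest coding transcript is at least 5 kb, its median log2 deviation from the other libraries of the group was -0.34, and over 1916 genes of at most 2 kb it was 0.252, whereas the other libraries of the Dex+LPS groups lay between -0.057 and 0.151 for the long genes. It also held the lowest Arid2, Pbrm1, Smarcc2, Smarca4 and Smarca2 counts of its group, and the highest Arid1b and Smarcc1 counts. Without it, the siRNA comparison with Dex+LPS called 2 of the 10 genes in place of 5, 1 higher and 1 lower. Arid1a was then 0.24 (limma adjusted p = 0.00587). Arid2 came to 0.17 (limma adjusted p = 0.0781), Smarcc2 0.11 (limma adjusted p = 0.113) and Dpf2 0.26 (limma adjusted p = 0.0657). Control siRNA vehicle replicate 1 deviated in the same direction, at -0.142 for the long genes and 0.116 for the short ones. It enters the siRNA comparison with vehicle and the LPS comparison with control siRNA. Genes with long transcripts also had a median log2 change of 0.211 for LPS with control siRNA, where the median over all tested genes was -0.037. Their median was 0.099 between the siRNAs with Dex+LPS, against 0.009 for all tested genes, and -0.13 for Dex with control siRNA, against -0.007; the part of transcript length in these results was not tested.

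Arid1b (chromosome 17, 4994332 to 5347656, plus strand) had normalized counts of 275, 246 and 193 with control siRNA and vehicle and of 234, 281 and 378 with Brg1 siRNA and vehicle. In the LPS groups Arid1b read 33.8, 72.9 and 46.0 (control siRNA) and 112, 97.2 and 88.7 (Brg1 siRNA). Arid1b counts in the Dex+LPS libraries were 121, 183, 101 and 69.6 (control siRNA) versus 94.9, 167, 121 and 91.4 (Brg1 siRNA). Every vehicle library lay above every other library, and after LPS the 3 Brg1 siRNA libraries lay above the 3 controls. LPS lowered Arid1b 4.68-fold with control siRNA (log2 change -2.26, SE 0.318, limma adjusted p = 4.31e-06) and to 0.334 of the vehicle mean with Brg1 siRNA (log2 change -1.55, SE 0.318, limma adjusted p = 0.000262). Dex raised it by 1.19 with control siRNA (SE 0.297, limma adjusted p = 0.00292), although the ranges of the LPS and Dex+LPS libraries overlapped, and the change of 0.22 with Brg1 siRNA was not called (SE 0.297, limma adjusted p = 0.589). The difference between these Dex changes was -0.97 (SE 0.42, limma adjusted p = 0.252), so the siRNAs were not shown to differ in it.

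With LPS, Arid1b was 1.95-fold higher with Brg1 siRNA (log2 difference 1.01, SE 0.318, limma adjusted p = 0.0197), on 30 to 63 reads a library against 78 to 90. The call was lost without control siRNA LPS replicate 1 (0.76, limma adjusted p = 0.108), control siRNA LPS replicate 3 (0.98, limma adjusted p = 0.0554) or Brg1 siRNA LPS replicate 1 (0.92, limma adjusted p = 0.0685). As a share of the Arid1a and Arid1b pair per kilobase, Arid1b fell from 13.1% ± 2.81 with vehicle to 1.26% ± 0.529 with LPS with control siRNA (SD, n = 3 each). It was 4.64% ± 2.66 (SD, n = 4) with Dex+LPS. The corresponding shares with Brg1 siRNA were 13.8%, 2.22% and 3.47%, and the siRNAs overlapped with vehicle and with Dex+LPS but not with LPS.

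The PBAF subunits rose after LPS under the authors' scaling, by less than Arid1a. Arid2 (chromosome 15, 96287518 to 96404992, plus strand), the DNA-binding subunit of PBAF, had normalized counts of 526, 659 and 633 with control siRNA and vehicle and of 743, 730 and 723 with Brg1 siRNA and vehicle. Arid2 stood at 936, 867 and 903 in the LPS controls and at 1092, 1067 and 1095 in their Brg1 siRNA counterparts. The 4 Dex+LPS controls read 980, 747, 981 and 955, and the 4 Brg1 siRNA libraries 1187, 1107, 1076 and 999. In all 3 treatments every Brg1 siRNA library was above every control siRNA library. The log2 differences were 0.28 with vehicle (SE 0.098, limma adjusted p = 0.0531), 0.27 with LPS (SE 0.098, limma adjusted p = 0.0449) and 0.26 with Dex+LPS (SE 0.085, limma adjusted p = 0.0241). The LPS call did not survive the removal of any 1 of its 6 libraries (0.24 to 0.29, limma adjusted p from 0.0626 to 0.125). The Dex+LPS call for Arid2 was also lost without Brg1 siRNA Dex+LPS replicate 1 (0.22, limma adjusted p = 0.0787) or 2 (0.25, limma adjusted p = 0.0538), and with vehicle Arid2 was called without control siRNA vehicle replicate 2 (0.34, limma adjusted p = 0.038). With vehicle it was also called by DESeq2 (DESeq2 adjusted p = 0.0347) and with the series of the library identifiers as covariate (limma adjusted p = 0.0475). The authors' deposited adjusted p for it was 0.038. On plain library totals the differences were 0.13 with LPS (limma adjusted p = 0.352) and 0.16 with Dex+LPS (limma adjusted p = 0.17), neither called. LPS raised Arid2 by 0.58 with control siRNA (SE 0.098, limma adjusted p = 3.79e-05) and by 0.57 with Brg1 siRNA (SE 0.098, limma adjusted p = 4.86e-05), which turned to -0.001 and -0.11 on plain library totals. The Dex changes were 0.01 and 0.01, not called.

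Pbrm1 (chromosome 14, 31019138 to 31121592, plus strand), the bromodomain subunit of PBAF, ranged from 844 to 1095 with control siRNA and vehicle and from 1070 to 1277 with Brg1 siRNA and vehicle. After LPS the ranges were 1393 to 1723 and 1763 to 1920, which did not overlap. With Dex+LPS the libraries were at 1436, 694, 1324 and 1245 with control siRNA and at 1706, 1558, 1480 and 1347 with Brg1 siRNA. Pbrm1 was not called between the siRNAs in any treatment, at 0.22, 0.25 and 0.42 (limma adjusted p = 0.496, 0.353 and 0.0573). With Dex+LPS it was called higher without control siRNA replicate 1 (0.54, limma adjusted p = 0.0212) or 3 (0.50, limma adjusted p = 0.0399), or Brg1 siRNA replicate 4 (0.48, limma adjusted p = 0.0492). The LPS changes were 0.66 with control siRNA (SE 0.191, limma adjusted p = 0.005) and 0.68 with Brg1 siRNA (SE 0.191, limma adjusted p = 0.00371). The Dex change with control siRNA was -0.46 (SE 0.179, limma adjusted p = 0.0411), and -0.225 (limma adjusted p = 0.093) without control siRNA Dex+LPS replicate 2. It was also not called without control siRNA LPS replicate 1 (-0.45, limma adjusted p = 0.0925) or replicate 2 (-0.39, limma adjusted p = 0.14). The call was kept in 8 of 17 alternatives. It was lost with edgeR (edgeR adjusted p = 0.0803), with no filter (limma adjusted p = 0.0533) and with only the groups compared (limma adjusted p = 0.164). Without the 4 libraries of the higher identifier series it was lost too (limma adjusted p = 0.0511).

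Of the scaffold paralogs, Smarcc1 fell after LPS and was higher with Dex, whereas Smarcc2 was lower with Dex under the authors' scaling. Smarcc1 (chromosome 9, 110117708 to 110240178, plus strand) had normalized counts of 621, 650 and 639 with control siRNA and vehicle and of 580, 512 and 508 with Brg1 siRNA and vehicle. LPS libraries gave Smarcc1 counts of 457, 508 and 522 under control siRNA and 373, 385 and 416 under Brg1 siRNA. Dex+LPS libraries held 606, 690, 545 and 636 under control siRNA versus 555, 641, 492 and 475 under Brg1 siRNA. With vehicle and with LPS, every Brg1 siRNA library was below every control siRNA library, and with Dex+LPS the ranges overlapped. The log2 difference was -0.34 with LPS (SE 0.105, limma adjusted p = 0.0191), and -0.26 and -0.20 with vehicle and Dex+LPS, where it was not called (limma adjusted p = 0.101 and 0.0996). Smarcc1 was called lower in both on plain library totals, at -0.30 (limma adjusted p = 0.0491) and -0.305 (limma adjusted p = 0.0122).

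The LPS call for Smarcc1 was lost without control siRNA LPS replicate 2 (-0.32, limma adjusted p = 0.0573) or 3 (-0.30, limma adjusted p = 0.0719), or Brg1 siRNA LPS replicate 1 (-0.30, limma adjusted p = 0.0696) or 2 (-0.33, limma adjusted p = 0.0502). With Dex+LPS, Smarcc1 was called lower without control siRNA replicate 3 (-0.26, limma adjusted p = 0.0415) or Brg1 siRNA replicate 2 (-0.29, limma adjusted p = 0.0174). The LPS changes of Smarcc1 were -0.36 with control siRNA (SE 0.105, limma adjusted p = 0.00498) and -0.45 with Brg1 siRNA (SE 0.105, limma adjusted p = 0.001). Dex raised it by 0.32 (SE 0.099, limma adjusted p = 0.0124) and by 0.46 (SE 0.099, limma adjusted p = 0.000999). The Dex call with control siRNA was lost without control siRNA LPS replicate 1 (0.26, limma adjusted p = 0.0693). Of the 31-base words of Smarcc1 transcripts, 5.78% occur in other genes, chiefly Gm7004, and 123 exon bases are shared with Dhx30 on the opposite strand.

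Smarcc2 (chromosome 10, 128459248 to 128490482, plus strand) had normalized counts of 1938, 2171 and 2232 with control siRNA and vehicle and of 2219, 2285 and 2219 with Brg1 siRNA and vehicle. In the LPS groups Smarcc2 read 2301, 2299 and 2383 (control siRNA) and 2515, 2528 and 2596 (Brg1 siRNA). Smarcc2 counts in the Dex+LPS libraries were 1822, 1583, 1842 and 1872 (control siRNA) versus 1995, 1876, 2160 and 1948 (Brg1 siRNA). The Dex+LPS libraries of each siRNA were the lowest for that siRNA, and after LPS and with Dex+LPS the siRNAs did not overlap. The Dex changes of Smarcc2 were -0.39 (SE 0.063, limma adjusted p = 5.53e-05) with control siRNA and -0.35 (SE 0.063, limma adjusted p = 0.000176) with Brg1 siRNA. On plain library totals they were -0.09 (limma adjusted p = 0.253) and -0.02 (limma adjusted p = 0.813), neither called. The LPS changes were 0.14 (SE 0.068, limma adjusted p = 0.0683) and 0.18 (SE 0.068, limma adjusted p = 0.0209), and their sign turned on plain library totals. The call with Brg1 siRNA was lost without Brg1 siRNA vehicle replicate 1 or 3 (limma adjusted p = 0.054 each) or LPS replicate 3 (limma adjusted p = 0.0613), and the change with control siRNA was called without control siRNA vehicle replicate 3 (0.18, limma adjusted p = 0.0397). The Brg1 siRNA difference was 0.17 with Dex+LPS (SE 0.059, limma adjusted p = 0.0362), a call that Brg1 siRNA Dex+LPS replicates 1 and 3 each decided (limma adjusted p = 0.0657 and 0.127 without them). It was 0.06 on plain library totals (limma adjusted p = 0.468). As a share of the scaffold pair per kilobase, Smarcc2 made up 80.7% ± 0.89, 85.6% ± 0.726 and 78.4% ± 2.83 under the 3 treatments, in the order vehicle, LPS and Dex+LPS, with control siRNA (SD, n = 3, 3 and 4). With Brg1 siRNA the shares were 84.2%, 89.2% and 82.3%, which overlapped with control siRNA only with Dex+LPS.

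Dpf2 and Actl6a were higher after LPS under the authors' scaling, and neither was called for Dex. Dpf2 (chromosome 19, 5896516 to 5913010, minus strand), the PHD finger subunit of canonical BAF, had normalized counts of 752, 761 and 784 with control siRNA and vehicle and of 808, 780 and 678 with Brg1 siRNA and vehicle. Dpf2 stood at 1240, 1602 and 1255 in the LPS controls and at 1534, 1599 and 1599 in their Brg1 siRNA counterparts. The 4 Dex+LPS controls read 1348, 1270, 1304 and 1148, and the 4 Brg1 siRNA libraries 1810, 1525, 1415 and 1335. All vehicle libraries lay below all others, and the siRNAs overlapped in each treatment. LPS raised Dpf2 by 0.82 (SE 0.108, limma adjusted p = 1.83e-06) and by 1.06 (SE 0.108, limma adjusted p = 6.54e-08), and the Dex changes of -0.10 and -0.06 were not called. On plain library totals the latter turned to 0.27 (limma adjusted p = 0.0236). The siRNA difference with Dex+LPS was 0.26 (SE 0.094, limma adjusted p = 0.0424), and leaving out control siRNA Dex+LPS replicate 2, 3 or 4, or Brg1 siRNA Dex+LPS replicate 1 or 2, ended that call, with limma adjusted p from 0.0546 to 0.161. The difference was 0.15 on plain library totals (limma adjusted p = 0.195). With LPS, Dpf2 was called higher with Brg1 siRNA once control siRNA LPS replicate 2, at 1602, was left out (0.34, limma adjusted p = 0.0228).

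Actl6a (chromosome 3, 32706298 to 32726973, plus strand), the actin-related subunit, had normalized counts of 475, 438 and 465 with control siRNA and vehicle and of 373, 368 and 369 with Brg1 siRNA and vehicle. LPS libraries gave Actl6a counts of 638, 595 and 659 under control siRNA and 635, 614 and 599 under Brg1 siRNA. Dex+LPS libraries held 672, 678, 697 and 607 under control siRNA versus 649, 635, 623 and 570 under Brg1 siRNA. The Brg1 siRNA vehicle libraries were the lowest, apart from the controls, and the siRNAs overlapped in the other treatments. Actl6a was the only gene besides Smarca4 called between the siRNAs with vehicle (-0.31, SE 0.068, limma adjusted p = 0.0029), a call kept in each of 16 alternatives. It was also called lower on plain library totals with Dex+LPS (-0.20, limma adjusted p = 0.00935). With LPS the difference was -0.03 (SE 0.068, limma adjusted p = 0.756), and the test of the change between them gave 0.28 (SE 0.096, limma adjusted p = 0.0737). LPS raised Actl6a by 0.46 (SE 0.068, limma adjusted p = 8.8e-06) and by 0.73 (SE 0.068, limma adjusted p = 1.92e-08), at -0.12 and 0.05 on plain library totals. Actl6a shares 452 exon bases with Mrpl47 on the opposite strand, and 11.9% of its 31-base words occur in other genes. The sources do not state whether reads were counted by strand; without strand, reads from the shared stretch cannot be assigned to either gene.

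Levels of different genes were compared per kilobase of the longest coding transcript. With control siRNA and vehicle, Smarcc2 was highest at 463 normalized counts per kilobase. Smarca4 (243), Dpf2 (231) and Actl6a (228) followed and overlapped with each neighbour, then Arid1a (141), Pbrm1 (126) and Smarcc1 (110), which also overlapped. Smarca2 (93.6), Arid2 (71.2) and Arid1b (21.03) came last, each apart from its neighbours. After LPS with control siRNA, Smarca4 (452) was next below Smarcc2 (510), and Smarca2 (7.20) and Arid1b (4.49) were lowest and overlapped. With Brg1 siRNA and vehicle, Smarca4 (55.6) was ninth of the 10, above Arid1b. The order depends on the length used: per kilobase of the median coding transcript, Smarca2 (664) came first with control siRNA and vehicle, before Actl6a (498) and Smarcc2 (493.5), and Arid1b (27.7) was again last.

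Of 19 other SWI/SNF subunit genes listed, 15 were tested. Smarcd3, Dpf1 and Dpf3 were below the filter, and Actl6b had no row. With control siRNA LPS raised 9 of the 15 and lowered 3, and with Brg1 siRNA it raised 8 and lowered 4, where 36% and 37% of all tested genes, and 35.4% and 37.4%, were raised and lowered. Their median LPS changes were 0.40 and 0.59, against -0.037 and -0.055 for all tested genes, and on plain library totals 2 were raised and 5 lowered with control siRNA and 2 raised and 6 lowered with Brg1 siRNA. Dex raised 2 and lowered 2 with control siRNA and raised 2 and lowered 4 with Brg1 siRNA, beside 23.4% and 25.2%, and 21.3% and 23%, of all tested genes. Plain library totals gave 6 raised and 1 lowered, and 7 raised and 0 lowered.

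Between the siRNAs, 1 of the 15 was lower with vehicle (10.8% of all tested genes), 2 were higher with LPS (17.3%) and 1 was higher with Dex+LPS (19%). Plain library totals gave 2 lower with vehicle, 0 higher and 1 lower with LPS, and 1 higher and 4 lower with Dex+LPS. Bcl7b, a BAF-associated protein, was 454, 440 and 494 with control siRNA and LPS and 593, 586 and 569 with Brg1 siRNA and LPS (log2 difference 0.33, SE 0.11, limma adjusted p = 0.0264). Its relative Bcl7c was 238, 249 and 269 against 362, 348 and 327 (0.46, SE 0.142, limma adjusted p = 0.019). Neither pair of groups overlapped, and neither gene was called higher on plain library totals. The count of 2 with LPS became 0 without control siRNA LPS replicate 1 and 1 without replicate 2. With vehicle, 2 genes in place of 1 were called without control siRNA replicate 1 or 3 or Brg1 siRNA replicate 3. With Dex+LPS, 2 of the 15 genes in place of 1 were called without control siRNA replicate 2 or 3, and 3 without replicate 4. Actb, whose product is actin and is also a subunit of the complex, was 27380, 28230 and 29480 in the vehicle controls versus 23210, 23330 and 23980 (-0.27, SE 0.049, limma adjusted p = 0.000608). With Dex+LPS it was 39680 to 42560 with control siRNA and 44930 to 49800 with Brg1 siRNA (0.22, SE 0.043, limma adjusted p = 0.000546). Actb was the only one of the 15 with a called siRNA by LPS interaction (0.35, SE 0.07, limma adjusted p = 0.00227), and since it has many processed copies in the genome its counts are uncertain.

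The genes whose levels were most like Smarca4 were taken from 8398 tested genes with a mean normalized count of at least 100, by Pearson's r on the log2 scale. Over the 10 control siRNA libraries, which differ in treatment and depth and include replicate 2 with Dex+LPS, they were Rusc2 (0.9902), Sec24b (0.988), Fbxw11 (0.986), Bmi1 and Gfpt1. Rusc2 changed by 0.93 after LPS and by -0.66 with Dex, beside 0.90 and -0.55 for Smarca4. Over all 20 libraries, which also span the knockdown of Smarca4, they were Pgam1, Cyp20a1, Derl1, Sec31a (0.955) and Itgax (0.950). Among the subunit genes over the control libraries, r to Smarca4 was 0.979 for Arid1a, 0.783 for Pbrm1, 0.759 for Dpf2, 0.72 for Arid2, 0.584 for Actl6a and 0.485 for Smarcc2. It was -0.836 for Smarcc1, -0.884 for Smarca2 and -0.947 for Arid1b. These correlations describe 3 treatment groups more than 10 independent samples.

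In the authors' deposited table, 43 results over the 10 genes and 7 comparisons passed an adjusted p of 0.05, and 42 of these were among the 42 called here, with 0 in the opposite direction. The remaining result was Arid2 between the siRNAs with vehicle.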

How the data were processed

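RNA-seq libraries from 20 macrophage samples were used. The deposited table holds signal values that are gene counts divided by size factors, made by the authors with Salmon 1.4.0, DESeq or DESeq2 and R 4.1.0 on mm10/GRCm38.p6, per the submitters' processing notes, which give neither order nor settings. It also holds the authors' log2 fold changes and adjusted p-values, used only where named. Whole reads could be recovered: 99.95% of non-zero values differed from a whole number of reads by 0.01 or less. The library kit was stranded, but strand use in counting is not given in the sources used here.

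Log2(normalized count + 1) values of 12061 genes were fitted with limma 3.58.1 (trend) in R 4.3.3, with all 6 groups in 1 fit and Benjamini-Hochberg adjustment over all genes; adjusted p under 0.05 was called. The scripts were tested on simulated data. edgeR 4.0.16 (TMM) and DESeq2 1.42.0 on the recovered reads, other pseudocounts (0.5, 5), no filter, plain library totals, a replicate block, the series of the library identifiers and left-out libraries were alternatives. Replicates differed beyond sampling noise. Same-numbered libraries did not deviate together in 9 of 10 pairs (r -0.166 to 0.0673). The exception was Dex+LPS replicate 4 (r 0.406), whose 2 libraries are both of the higher identifier series. That series also held control siRNA LPS replicate 3 and Brg1 siRNA LPS replicate 2, and no vehicle library. These LPS libraries carry different numbers, so neither the pairing by number nor the replicate block matched them. Control siRNA LPS replicate 3 correlated best with Brg1 siRNA LPS replicate 2. Gene positions and transcript lengths are from GENCODE M21. The members and lists were chosen with earlier results of these data known; the 10 members are all named, of other subunits those called between the siRNAs, and the 5 genes most like Smarca4 by r in each set.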

Additional observations from a re-analysis of the deposited data

Results flagged for a closer look

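In 20 sets of 4 libraries (10 genes in the 2 Dex+LPS groups), 2 held a value far from the other 3 by Dixon's test, a rate at which chance alone flags about 1 in 20 sets. With control siRNA and Dex+LPS the lowest Arid2 count was 747, against 955 to 981 in the others. The lowest Smarcc2 count of that group was 1583, against 1822 to 1872. Both came from replicate 2, the library with lower counts for long transcripts (median log2 deviation -0.34) and higher counts for short ones (0.252). The part of transcript length in these counts was not tested.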

How the results depend on the processing

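Of the 90 results (10 genes in 9 comparisons), 42 were called, and 20 of these kept the call in every alternative run. Of the 48 not called, 31 were never called. Plain library totals called 6 of the 10 genes for LPS with Brg1 siRNA, in place of 10. In the siRNA comparison with Dex+LPS, 3 genes were called in place of 5 with no filter, 3 with edgeR and 1 with only the groups compared. Only the groups compared also called 4 in place of 2 with vehicle. Without the 4 libraries of the higher identifier series, 1 gene in place of 4 was called with LPS. In the siRNA by LPS interaction 1 gene, Actl6a, was called in place of 0 with the replicate block (adjusted p = 0.029), the identifier series as covariate (0.0421), without its 4 libraries (0.0364) and with only the groups compared (0.0457). The block changed 2 other calls, losing Arid2 between the siRNAs with LPS (adjusted p = 0.0574) and Pbrm1 for Dex with control siRNA (0.0634). Over all genes, the siRNA by Dex interaction called 727 with DESeq2, 730 with the covariate, 300 without the 4 libraries and 319 with only the groups compared, in place of 479. Leaving out 1 library gave 1 to 3 called genes for the siRNA comparison with LPS and 2 to 6 with Dex+LPS.

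Signs turned mostly near 0. On plain library totals the siRNA differences became -0.033 (Smarca2, vehicle), -0.011 (Arid1a, LPS), -0.009 (Smarcc2, LPS), -0.096 (Smarca2, Dex+LPS) and -0.058 (Arid1b, Dex+LPS). The LPS changes became -0.44 (Smarcc2), -0.124 (Actl6a) and -0.001 (Arid2) with control siRNA, and -0.496 (Smarcc2) and -0.114 (Arid2) with Brg1 siRNA. The Dex changes became 0.198 (Dpf2, control), 0.271 (Dpf2, Brg1) and 0.048 (Pbrm1, Brg1). The LPS interactions of Smarcc2 and Pbrm1 became -0.057 and -0.072, and the Dex interaction of Arid2 0.029. With edgeR, Smarca2 and Arid1b between the siRNAs with Dex+LPS were -0.097 and -0.029, and with DESeq2 Smarca2 was -0.06. Without the 4 libraries, Actl6a with LPS was 0.001, Arid1b with Dex+LPS -0.07, Arid2 for Dex (control) -0.008, Dpf2 for Dex (Brg1) 0.008, Pbrm1 for the LPS interaction -0.02 and Arid2 for the Dex interaction 0.046. None of these is called except Smarcc2 for LPS and Dpf2 for Dex (Brg1) on plain totals. The cause was not tested. Leaving out 1 library, the siRNA difference ranged from -0.074 to 0.053 (Dpf2) and -0.056 to 0.125 (Smarca2) with vehicle, and from -0.211 to 0.234 (Smarca2) and -0.179 to 0.28 (Arid1b) with Dex+LPS. Dex changes ranged from -0.164 to 0.021 (Dpf2) and -0.022 to 0.108 (Arid2) with control siRNA, and from -0.017 to 0.046 (Actl6a) and -0.033 to 0.05 (Arid2) with Brg1 siRNA. LPS interactions ranged from -0.077 to 0.085 (Arid2) and -0.053 to 0.141 (Pbrm1). Dex interactions ranged from -0.082 to 0.103 (Dpf2), -0.019 to 0.065 (Smarcc2), -0.101 to 0.036 (Arid2) and -0.059 to 0.29 (Pbrm1). Depth limits Smarca2 and Arid1b after LPS, at 27 to 90 reads a library.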
